A study of Homo sapiens with 8 samples.

Results

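Keratins are the intermediate filament proteins of epithelial cells. Here 10 keratin genes (KRT7, KRT8, KRT10, KRT15, KRT17, KRT18, KRT19, KRT23, KRT80 and KRT81) were followed through a table of 39533 genes. They were chosen by symbol, with earlier results of these data known. The table covers 8 libraries of HCT116, a cell line of human colorectal cancer, isolated from a tumour self-seeding model, in which cells shed by a tumour return to it. Tumour self-seeded cells (TSC, n = 3) were taken from the primary tumour, circulating tumour cells (CTC, n = 2) from the blood, and primary tumour cells (PC, n = 3) from the primary tumour. All groups share the same line, no further genotype or treatment is named, the sources used here do not name the host, and the title of the study speaks of liver cancer although the line is colorectal. Nothing states that replicates came from separate animals or cultures, so p-values measure only the spread between these libraries, which may be technical.

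A keratin filament is built from pairs of unlike chains, each made of one acidic type I chain and one basic type II chain, and a chain without a partner is degraded. Type I genes cluster on chromosome 17 and type II genes on chromosome 12, except KRT18, a type I gene that lies beside its partner KRT8. Simple epithelia such as that of the colon are built on KRT8 with KRT18 and KRT19, whereas KRT5, KRT14, KRT15 and KRT17 are known from basal cells and appendages of stratified epithelia and KRT1 and KRT10 from the upper epidermis. Filaments attach to desmosomes and hemidesmosomes through linker proteins of the plakin family, and colonic tumours keep the simple-epithelial pair, which is why keratins serve to identify epithelial tumour cells in blood.

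On GRCh38 (GENCODE 29) the type II members are KRT80 (chr12:52168996-52192000, minus strand), KRT7 (chr12:52232520-52252186, plus strand), KRT81 (chr12:52285913-52291534, minus strand) and KRT8 (chr12:52897187-52949954, minus strand). The type I members are KRT18 (chr12:52948871-52952901, plus strand), KRT10 (chr17:40818117-40822595), KRT23 (chr17:40922696-40937634), KRT15 (chr17:41513743-41522529), KRT19 (chr17:41523617-41528308) and KRT17 (chr17:41619441-41624842), the last 5 all on the minus strand. The exons of KRT8 overlap 24.0% of the principal KRT18 transcript on the opposite strand, and the sources used here do not state the strand setting of the counting, so reads from that stretch cannot be assigned with certainty. The antisense gene KRT7-AS overlaps 12.6% of the KRT7 transcript in the same way, but it held at most 9 counts in any library.

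Several keratins are also near copies of each other in parts of their sequence. What this does to their counts was not tested. In a coding stretch of 60 bases shown here because a read from it could come from several type I genes, KRT17 (chr17:41620671-41620730) and KRT16 (chr17:41610343-41610402) have 0 differences, KRT14 (chr17:41583247-41583306) has 2, KRT19 (chr17:41523789-41523848) has 8 and KRT15 (chr17:41515484-41515543) has 10. The sequences are the minus strand of GRCh38, and capitals mark bases that differ from KRT17.
KRT17: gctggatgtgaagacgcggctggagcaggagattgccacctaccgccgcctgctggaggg
KRT16: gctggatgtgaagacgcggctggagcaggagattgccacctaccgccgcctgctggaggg
KRT14: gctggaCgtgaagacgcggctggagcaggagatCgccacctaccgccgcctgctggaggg
KRT19: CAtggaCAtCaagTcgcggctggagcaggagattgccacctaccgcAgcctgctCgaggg
KRT15: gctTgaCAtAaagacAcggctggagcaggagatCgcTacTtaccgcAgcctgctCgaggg
Of all stretches of 50 bases in the principal transcript, 16% of those of KRT17, 32.7% of those of KRT8, 31.8% of those of KRT18 and 44.6% of those of KRT81 also occur in transcripts of another gene, against 1.79% for KRT19, 0.997% for KRT7, 0.42% for KRT80, 0.328% for KRT15 and 0 for KRT10 and KRT23. The genes sharing the most with them were KRT17P1 for KRT17, KRT8P3 for KRT8, KRT18P11 for KRT18 and KRT86 for KRT81. The 13 keratin pseudogene and antisense rows of the table held between 0 and 30 counts per library, at most 0.0653% of all keratin counts. KRT8P3 and KRT18P11 are not among these rows, so this low share says nothing about reads from them. Of the 30 in CTC replicate 2, 29 were from KRT18P55.

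The TSC libraries held 4578869 to 14717833 counts, CTC replicates 1 and 2 held 957607 and 10524069, and the PC libraries 10864761 to 19264595. Levels are given as CPM, counts relative to the library total after TMM scaling, a factor that evens out library composition. With 3 counts as the floor, a 0 allows up to 2.99 CPM in CTC replicate 1 and 0.156 to 0.669 CPM elsewhere, for counting error only. The epithelial markers EPCAM and CDH1 were abundant in every library (EPCAM at 472 to 616 CPM in TSC, 546 and 568 CPM in CTC and 391 to 469 CPM in PC), and the intestinal transcription factor gene CDX2 was at 25.3 to 29.2 CPM in TSC, 13.0 and 33.9 CPM in CTC and 25.3 to 28.7 CPM in PC. The intestinal markers KRT20, CDX1 and LGALS4 were at 0 in all 8, and CDH17 held at most 8 counts in any library. Leukocyte markers (14 genes, of which CD3E was at 0 throughout) summed to 27.6 to 52.4 CPM in TSC, 447 and 179 CPM in CTC replicates 1 and 2, and 15.0 to 23.9 CPM in PC. Outside CTC most of this sum was CD68. It gave 26.5, 49.2 and 21.25 CPM in TSC replicates 1 to 3. In PC it gave 10.8, 15.3 and 20.7 CPM. The higher sum in TSC than in PC thus rests mainly on this gene. CD68 was not raised in CTC against PC (log2 fold change 0.04 ± 0.40 SE). CD14 and TYROBP held at most 3 counts in any library. Erythroid markers (HBB leading, with HBA2 at 0 throughout and HBA1 at 0 in CTC) summed to at most 0.565 CPM in TSC, to 195 and 252 CPM in CTC and to at most 1.59 CPM in PC. With edgeR, 7 of 9 tested leukocyte genes and 3 of 3 tested erythroid genes rose in CTC against PC (all genes, 1.4%). The sources used here do not say whether reads of the host were removed before counting, so counts of blood-cell genes in CTC may include host reads assigned to human genes, which was not tested. Platelet, endothelial and hepatocyte markers each summed to at most 3.82 CPM in any library. In such bulk libraries, fewer cells of a type and less RNA per cell cannot be told apart.

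Of the 10 keratins, 8 had enough counts to be tested and KRT23 and KRT81 were listed at 0 in all 8 libraries. The data thus do not bear out these 2 as keratins of the line, within the floors given above, which cover counting error only. Of the stretches of 50 bases in KRT81, 44.6% also occur in transcripts of another gene. How reads from such stretches were counted is not stated. The table held 55 keratin genes apart from pseudogenes and antisense rows, of which 23 were at 0 in every library, among them KRT1, the usual partner of KRT10. Outside the list, 14 had at least 10 counts over all libraries (KRT4, KRT5, KRT6A, KRT6B, KRT9, KRT13, KRT14, KRT16, KRT32, KRT71, KRT74, KRT75, KRT86 and KRT222), and 9 of these 14 passed the filter on low counts.

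Levels spanned more than an order of magnitude between the simple-epithelial keratins and the rest. Per kilobase of principal transcript, KRT8, the type II chain of simple epithelia, had a median over the 8 libraries of 1879 CPM per kb, KRT19 of 1170 and KRT18 of 922 CPM per kb. KRT10 followed at 18.3, KRT80 at 10.3, KRT7 at 8.59, KRT17 at 3.72 and KRT15 at 1.67 CPM per kb. KRT8 exceeded KRT19 in 8 of 8 libraries, KRT19 exceeded KRT18 in 7 of 8 (PC replicate 3 was the exception, at 1106 against 1125 CPM per kb) and KRT18 exceeded KRT10 in all 8. KRT10 exceeded KRT80 in 7 of 8, and KRT80 exceeded KRT7 in 7 of 8 (PC replicate 1 was the exception, at 11.7 against 14.4 CPM per kb). The ranges of these 3 genes over the 8 libraries overlapped, as did those of KRT17 and KRT15. The place of KRT15 rests on its annotated transcript of 5237 bases, since per kilobase of coding sequence it stood at 6.38 CPM, above KRT17 at 4.74 CPM. Per kilobase of coding sequence KRT80 stood above KRT10, at medians of 29.2 and 22.2 CPM. With the union of all annotated exons as the length, KRT19 stood above KRT8. KRT8, KRT18 and KRT19 together held 97.8% to 98.9% of the counts of the 10 genes.

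**Figure D1:**
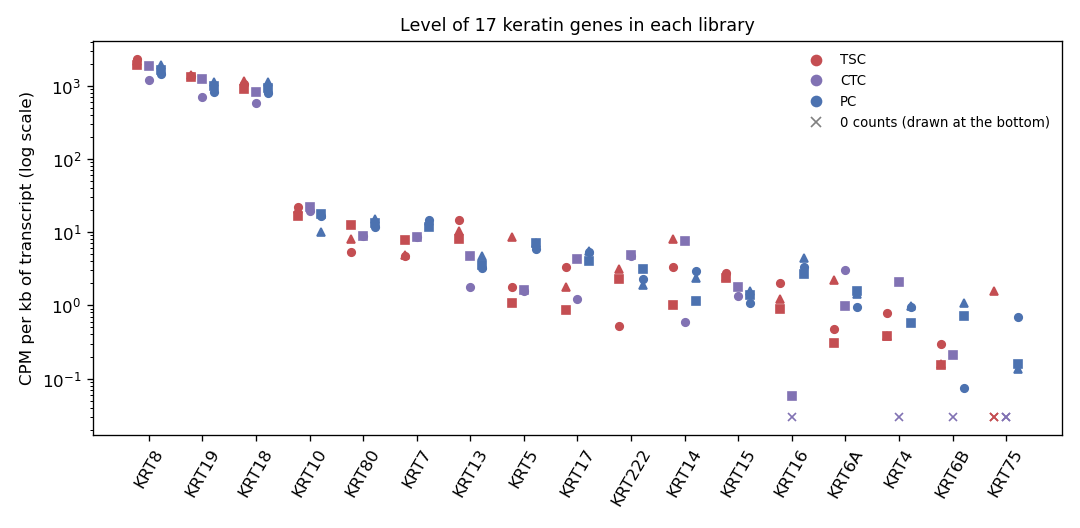
Level of 17 tested keratin genes in CPM per kilobase of principal transcript (log axis), with 1 point per library, coloured by group, and circles, squares and triangles for replicates 1, 2 and 3. KRT8, KRT19 and KRT18 lie between 581 and 2303 CPM per kb, and all others lie below 22 CPM per kb in every library.

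The first question is whether self-seeded cells differ in their keratins from the other cells of the primary tumour. In TSC the simple-epithelial chains KRT8 and KRT19 and the basal-type chain KRT15 lay above PC in every library, and KRT7 and KRT17 lay below PC in every library, yet none of these differences passed the test across all genes. KRT7, the type II keratin of ductal and glandular epithelia, came closest, at 2.28-fold lower. edgeR's quasi-likelihood test called 0 of the 8 tested keratins at an adjusted p under 0.05, against 72 of 14255 genes (0.505%), and 6 of the 8 had an unadjusted p under 0.05, against 10.3% of all genes. The libraries did not overlap for 3 keratins that were higher in TSC and 2 that were lower, against 8.96% and 9.9% of all genes, and the median log2 fold change of the 8 was 0.25, against 0.01 over all genes. The keratins, and the gene lists used below, were chosen with earlier results of these data known. Such shares, here and below, therefore describe the genes and do not test the set.

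KRT8 was at 4896, 4085 and 4570 CPM in TSC replicates 1 to 3, against 3024, 3471 and 4016 CPM in PC replicates 1 to 3. The groups did not overlap, but the lowest TSC library exceeded the highest PC library by less than the SD within either group (408 and 497 CPM). The log2 fold change was 0.37 ± 0.17 SE (n = 3 and 3, edgeR adjusted p = 0.468).

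KRT19, the short type I chain that lacks most of the tail domain, was at 1909, 1847 and 1941 CPM in TSC, against 1129, 1359 and 1537 CPM in PC. The TSC libraries lay close together and all above PC. The log2 fold change was 0.50 ± 0.19 SE (edgeR adjusted p = 0.375). KRT18, the other type I chain of simple epithelia, was at 1660, 1415 and 1831 CPM in TSC, against 1240, 1464 and 1757 CPM in PC, and the groups overlapped (log2 fold change 0.14 ± 0.17 SE, edgeR adjusted p = 0.838).

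KRT15, a type I keratin known from basal cells and hair follicle stem cells, was at 14.3, 12.4 and 12.7 CPM in TSC, against 5.70, 7.27 and 8.20 CPM in PC. The groups did not overlap, with 64 to 176 counts per library behind these values, and the log2 fold change was 0.89 ± 0.29 SE (edgeR adjusted p = 0.282). With every library thinned to the shallowest one it was 0.34 (edgeR adjusted p = 0.865). KRT10 was at 46.6, 35.4 and 44.3 CPM in TSC, against 35.7, 37.0 and 21.2 CPM in PC, and the groups overlapped (log2 fold change 0.43 ± 0.23 SE, edgeR adjusted p = 0.555).

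KRT7 was at 8.25, 13.6 and 8.59 CPM in TSC, against 25.3, 20.6 and 24.7 CPM in PC. Every TSC library was below every PC library, and the log2 fold change was −1.19 ± 0.26 SE (edgeR adjusted p = 0.0619). DESeq2's Wald test put it past the threshold (adjusted p = 0.0107, with 1.3% of genes called), as did edgeR with no filter on low counts (adjusted p = 0.00428, with 1.54% of genes called) and with only the TSC and PC libraries in the fit (adjusted p = 0.0447, with 0.967% of genes called). It also passed without TSC replicate 2 (adjusted p = 0.0209), without CTC replicate 1 (adjusted p = 0.0442) and without CTC replicate 2 (adjusted p = 0.0469), and over all 8 such fits its adjusted p ran from 0.0209 to 0.291. The fit without TSC replicate 2 called 153 genes in all, against 72 in the main fit. KRT7 did not pass in edgeR with DESeq2 size factors (adjusted p = 0.0585), a stricter filter (adjusted p = 0.0593) or added pseudogene counts (adjusted p = 0.0618). With the replicate number as a block its adjusted p in edgeR was 0.101. With every library thinned to the shallowest one it was 0.3065. The log2 fold change was negative in all of these fits, between −1.49 and −1.09.

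KRT17, a type I keratin induced in wounded and stressed epithelia, was at 5.57, 1.41 and 2.89 CPM in TSC, against 8.80, 6.71 and 9.03 CPM in PC, from 20 to 32 counts per TSC library. All TSC libraries were below PC, and TSC replicate 1 was well above the other two, and the log2 fold change was −1.40 ± 0.50 SE (edgeR adjusted p = 0.358). KRT80, a type II keratin linked to differentiation and desmosomes, was at 20.7, 48.8 and 31.3 CPM in TSC, against 45.2, 52.0 and 58.9 CPM in PC. TSC replicate 2 reached into the range of PC, and the log2 fold change was −0.61 ± 0.25 SE (edgeR adjusted p = 0.43).

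**Figure D2:**
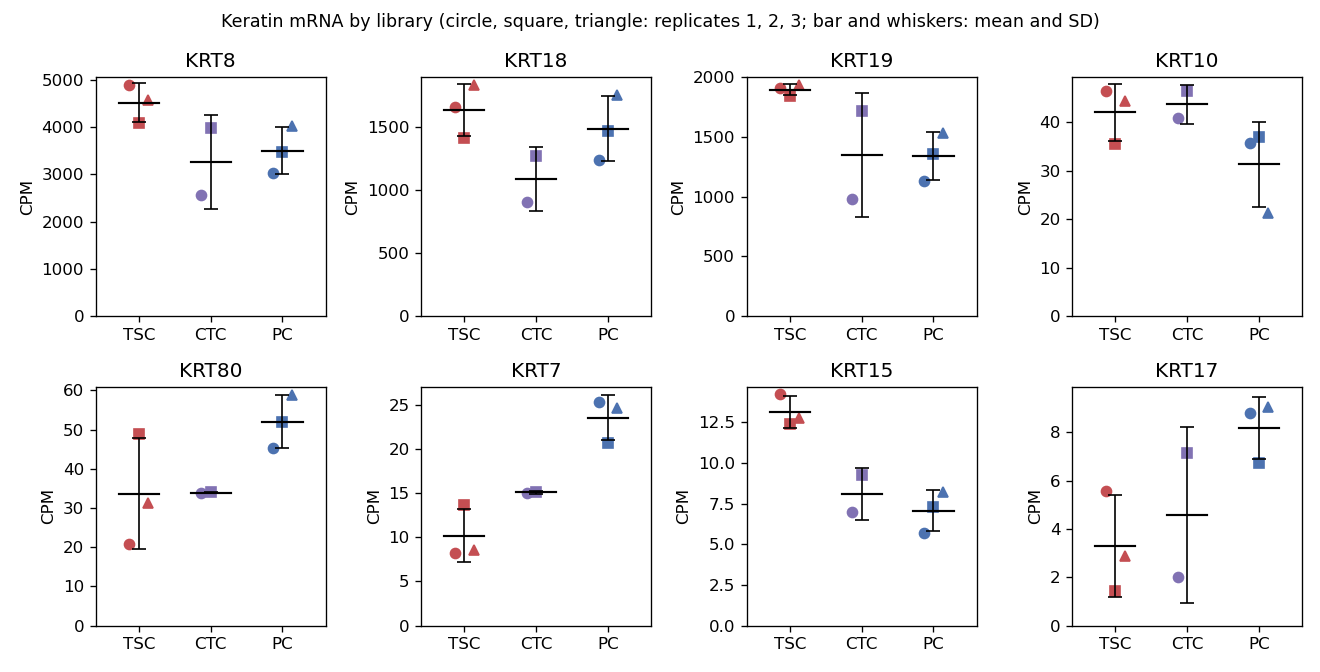
CPM of the 8 detected keratins in each library of TSC (n = 3), CTC (n = 2) and PC (n = 3), on linear axes that start at 0, with circles, squares and triangles for replicates 1, 2 and 3 and the mean and SD of each group in black. KRT7 shows TSC at 8.25 to 13.6 CPM, CTC near 15 CPM and PC at 20.6 to 25.3 CPM, with no overlap between the groups.

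The second question is whether the keratins of HCT116 cells from blood differ from those of cells from the tumour. In CTC, KRT7 and KRT80 lay below PC in both libraries and KRT10 above it, while KRT8, KRT15, KRT17, KRT18 and KRT19 overlapped with PC. edgeR's quasi-likelihood test called 0 of the 8 tested keratins, against 559 of 14255 genes (3.92%), and DESeq2 called 0 as well, against 7.85% of genes. An unadjusted p under 0.05 was reached by 1 of the 8, KRT18, against 23.6% of all genes. The libraries did not overlap for 2 keratins that were lower and 1 that was higher in CTC, against 24.7% and 19.9% of all genes. Both counts are near or below the share of all genes. The median log2 fold change of the 8 was −0.27, against −0.04 over all genes.

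KRT7 was at 15.0 and 15.2 CPM in CTC, against 20.6 to 25.3 CPM in PC (−0.64 ± 0.31 SE on the log2 scale, with 2 and 3 libraries, edgeR adjusted p = 0.229). KRT80 was at 33.9 CPM in both CTC libraries, against 45.2 to 58.9 CPM in PC (−0.62 ± 0.31 SE, edgeR adjusted p = 0.24). For both genes the shallow and the deep CTC library gave nearly the same level, although CTC replicate 1 rested on 15 counts of KRT7 and 34 of KRT80. KRT10 was at 40.9 and 46.5 CPM in CTC, against 21.2 to 37.0 CPM in PC (0.51 ± 0.26 SE, edgeR adjusted p = 0.262).

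The abundant chains parted the CTC libraries from each other. KRT8 was at 2563 and 3974 CPM in CTC replicates 1 and 2, against 3024 to 4016 CPM in PC (−0.10 ± 0.19 SE, edgeR adjusted p = 0.785). KRT19 was at 984 and 1715 CPM in CTC, against 1129 to 1537 CPM in PC (0.01 ± 0.21 SE, edgeR adjusted p = 0.976). When single libraries were left out the sign of both changed, with log2 fold changes from −0.46 to 0.18 for KRT8 and from −0.45 to 0.35 for KRT19. In both genes CTC replicate 1 was below and CTC replicate 2 within or above the range of PC, and CTC replicate 1 was also the library with the most leukocyte marker RNA, whose part in this was not tested. KRT18 was at 908 and 1267 CPM in CTC, against 1240 to 1757 CPM in PC (−0.45 ± 0.20 SE, edgeR adjusted p = 0.184). KRT15 was at 6.98 and 9.25 CPM and KRT17 at 1.99 and 7.15 CPM in CTC, the values in replicate 1 resting on 7 and 2 counts, against 5.70 to 8.20 CPM of KRT15 and 6.71 to 9.03 CPM of KRT17 in PC.

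The third comparison sets self-seeded against circulating cells. KRT8, KRT15, KRT18 and KRT19 lay higher in every TSC library than in both CTC libraries, and KRT7 lay lower. edgeR's quasi-likelihood test called 0 of the 8 keratins, against 128 of 14255 genes (0.898%), and DESeq2 called 0, against 2.71% of genes. An unadjusted p under 0.05 was reached by 3 of the 8 (KRT8, KRT18 and KRT19), against 16.7% of all genes. The libraries did not overlap for 4 keratins that were higher and 1 that was lower in TSC, against 15.4% and 13% of all genes.

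KRT18 had the smallest p of the 8 here, with 1415 to 1831 CPM in TSC, against 908 and 1267 CPM in CTC (log2 fold change 0.59 ± 0.20 SE, n = 3 and 2, edgeR adjusted p = 0.164). It passed in edgeR with no filter on low counts (adjusted p = 0.0364, with 3.17% of genes called). KRT8 was at 0.47 ± 0.19 SE (edgeR adjusted p = 0.235), KRT19 at 0.49 ± 0.21 SE (edgeR adjusted p = 0.263), KRT15 at 0.62 ± 0.36 SE (edgeR adjusted p = 0.401) and KRT7 at −0.55 ± 0.31 SE (edgeR adjusted p = 0.394), all as log2 fold changes of TSC over CTC. KRT80 (0.01 ± 0.31 SE, edgeR adjusted p = 0.996), KRT10 (−0.08 ± 0.27 SE, edgeR adjusted p = 0.921) and KRT17 (−0.83 ± 0.59 SE, edgeR adjusted p = 0.504) overlapped between the groups. The fold changes of KRT8 and KRT19 shrank to 0.18 and 0.15 without CTC replicate 1, while without CTC replicate 2 they were 0.82 and 0.95. That of KRT17 turned positive without CTC replicate 2, at 0.62, and was −1.23 without CTC replicate 1, which held 2 counts of it.

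**Figure D3:**
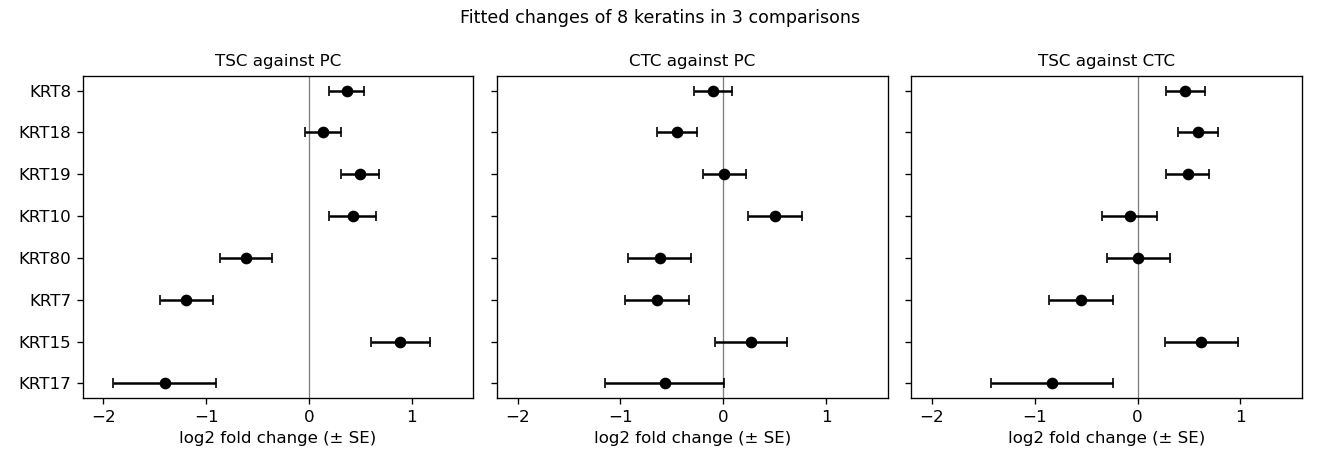
Fitted log2 fold changes of the 8 tested keratins with their standard errors, for TSC against PC, CTC against PC and TSC against CTC, with a grey line at 0. In TSC against PC, KRT7 stands at −1.19 and KRT17 at −1.40, left of 0, and KRT15 at 0.89, right of it. Comparisons that share a group share its libraries.

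Taking the ratio of chains within a library removes the library total. The ratio of KRT19 to KRT18, the 2 type I chains that pair with KRT8, was 1.29, 1.47 and 1.19 in TSC replicates 1 to 3, 1.22 and 1.52 in CTC, and 1.02, 1.04 and 0.983 in PC, per kilobase. All TSC and CTC libraries thus lay above all PC libraries. The difference was 0.37 on the log2 scale for TSC over PC and 0.42 for CTC over PC. Two-sided exact permutation tests gave p = 0.1 for TSC against PC and p = 0.1 for CTC against PC. With these group sizes 0.1 is the smallest possible p, so no ratio could pass the threshold used for the genes. The ratios were also picked from the same values. A permutation p of 0.1, here and below, therefore only restates that the groups do not overlap.

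The ratio of KRT8 to KRT18 behaved alike, at 2.17, 2.12 and 1.83 in TSC, 2.07 and 2.31 in CTC, and 1.79, 1.74 and 1.68 in PC. Its log2 difference was 0.23 for TSC over PC (exact permutation p = 0.1) and 0.33 for CTC over PC (exact permutation p = 0.1). The ratio of KRT8 to KRT18 plus KRT19 spanned less, at 0.837 to 0.946 in TSC, 0.935 and 0.914 in CTC and 0.847 to 0.886 in PC. CTC did not overlap with PC (log2 difference 0.10, exact permutation p = 0.1), while TSC did (0.03, exact permutation p = 0.8). KRT8 over KRT19 was 1.45 to 1.68 in TSC, 1.70 and 1.51 in CTC and 1.67 to 1.75 in PC, and each group overlapped with PC (exact permutation p = 0.2 for each). KRT15 over KRT17 was 0.807, 2.77 and 1.39 in TSC, 1.10 and 0.408 in CTC and 0.204, 0.341 and 0.286 in PC. It differed most of the 5 ratios, by 2.43 on the log2 scale for TSC over PC (exact permutation p = 0.1) and by 1.31 for CTC over PC (exact permutation p = 0.1). This ratio rests on few counts, with 7 of KRT15 and 2 of KRT17 in CTC replicate 1. The TSC libraries held 20 to 32 counts of KRT17 each. Over the 15 tests of 5 ratios the smallest Benjamini-Hochberg adjusted p was 0.214. These tests could not have passed the threshold whatever the values, so they decide nothing about the ratios. The ratios were chosen after the values were seen, both comparisons share the PC libraries, and KRT18 is the gene whose transcript the exons of KRT8 overlap.

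**Figure D4:**
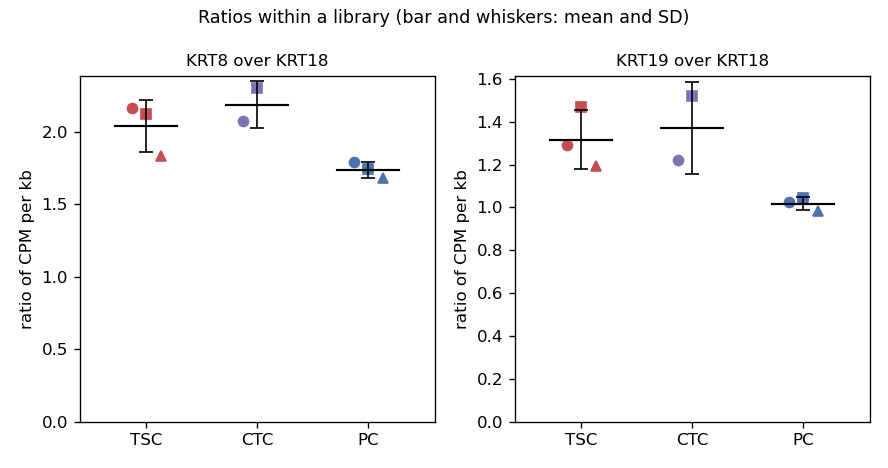
Ratios of CPM per kilobase within each library for KRT8 over KRT18 and KRT19 over KRT18 in TSC (n = 3), CTC (n = 2) and PC (n = 3), with symbols for replicates 1 to 3 and the mean and SD in black; axes start at 0. KRT19 over KRT18 lies between 1.19 and 1.52 in TSC and CTC and between 0.983 and 1.04 in PC.

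Among keratins outside the list, KRT16, a type I keratin of wounded and hyperproliferative epidermis (chr17:41609778-41615899), was the only tested one called, and it fell in CTC. It had 15, 21 and 22 counts in TSC replicates 1 to 3, 0 and 1 counts in CTC, and 66, 48 and 140 counts in PC. Of its stretches of 50 bases, 22% also occur in transcripts of another gene, and what this does to its counts was not tested. With every library thinned to the shallowest one, KRT16 had too few counts to be tested. Pooled over libraries, the CTC level was 0.0144 of that in PC (1 against 254 counts, exact binomial 95% interval 0.000364 to 0.0811, counting error only; edgeR adjusted p = 0.00975). Without CTC replicate 2 the call was lost (adjusted p = 0.238), CTC replicate 1 having no count. In TSC against CTC it did not pass (edgeR adjusted p = 0.0747). It did in edgeR with no filter (adjusted p = 0.013, with 3.17% of genes called) and without TSC replicate 1 (adjusted p = 0.0444). It also passed by DESeq2 (adjusted p = 0.0462, with 2.71% of genes called). KRT16 was lower in TSC than in PC as well, at 1.48 to 3.34 CPM against 4.42 to 7.27 CPM, without passing (−1.39 ± 0.51 SE, edgeR adjusted p = 0.374). The protein-coding genes with the most similar pattern over the 8 libraries were DDX41, SGK2 and NUDT14, with Pearson correlations of log2 CPM of 0.982, 0.980 and 0.979 among 12006 genes compared, given as a description.

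KRT13, a type I keratin of non-cornified stratified epithelia, was at 25.2, 13.8 and 17.8 CPM in TSC, 2.99 and 7.92 CPM in CTC and 5.53, 5.98 and 7.996 CPM in PC. TSC stood above both other groups in every library, and the log2 fold change was 1.52 ± 0.33 SE against PC (edgeR adjusted p = 0.0646) and 1.52 ± 0.42 SE against CTC (edgeR adjusted p = 0.107). KRT5, the basal type II chain, was at 4.46, 2.75 and 21.5 CPM in TSC, 3.99 and 4.10 CPM in CTC and 15.0, 18.03 and 17.7 CPM in PC, so that TSC replicate 3 alone among TSC libraries reached the level of PC. TSC replicate 3 was also the highest TSC library for KRT14 (13.4 CPM), KRT6A (5.16 CPM) and KRT75 (3.62 CPM, against 0 counts in the other TSC libraries), and it held the most fibroblast marker RNA, 111 CPM over 6 genes against 8.69 and 31.3 CPM in TSC replicates 1 and 2. DCN and LUM were at 0 in all libraries. Whether the 2 are linked was not tested. Over the 9 tested keratins outside the list, edgeR called 0 in TSC against PC, 1 in CTC against PC and 0 in TSC against CTC, against 0.505%, 3.92% and 0.898% of all genes. An unadjusted p under 0.05 was reached by 2 of the 9 in each comparison, against 10.3%, 23.6% and 16.7% of all genes in the same order.

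Of 17 linker genes of desmosomes and hemidesmosomes, 16 were tested, and 3 fell in CTC against PC (all genes, 2.52%) and 0 rose (all genes, 1.4%). The fold change was negative for 14 of 16, against 7501 of 14255 genes (median log2 fold change −0.73, against −0.04 over all genes). Periplakin (PPL) was at 37.9 and 46.8 CPM in CTC, against 142 to 203 CPM in PC (−1.97 ± 0.45 SE, edgeR adjusted p = 0.0276). Envoplakin (EVPL), its partner at desmosomes, was at 55.9 and 42.2 CPM in CTC, against 150 to 207 CPM in PC (−1.89 ± 0.50 SE, edgeR adjusted p = 0.0472). The hemidesmosome integrin ITGB4 was at 258 and 219 CPM in CTC, against 508 to 901 CPM in PC (−1.44 ± 0.34 SE, edgeR adjusted p = 0.0301). For all 3 genes both CTC libraries lay below all PC libraries, as was the case for 24.7% of all genes. The 3 are named because they were called lower. The 2 positive fold changes were those of another integrin gene, ITGA6, and of PKP2. ITGA6 was at 212.5 and 230.6 CPM in CTC, against 142.6 to 202.7 CPM in PC (0.38 ± 0.19 SE, edgeR adjusted p = 0.242). PKP2 overlapped between the groups (0.21 ± 0.29 SE, edgeR adjusted p = 0.699).

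The size of these 3 differences held in every fit that left out a library, but the calls did not. The log2 fold change of CTC against PC ran from −2.07 to −1.67 for EVPL, from −2.17 to −1.81 for PPL and from −1.58 to −1.11 for ITGB4. EVPL and PPL were not called without TSC replicate 3, either CTC library or any PC library (edgeR adjusted p of 0.0784 to 0.341 and of 0.0506 to 0.242), and ITGB4 was not called without TSC replicate 3, either CTC library, PC replicate 2 or PC replicate 3 (0.0531 to 0.277). Without either CTC library that group has 1 library, which is then assumed to vary like the others, so fewer calls follow from the design. EVPL was also not called by DESeq2 (adjusted p = 0.067) or with a stricter filter (adjusted p = 0.0504). The transcripts of these 3 genes have 5919 to 6614 bases, and over the longest 10% of tested transcripts (7116 bases and more) the median log2 fold change of CTC against PC was −0.12. By library, relative to the mean of PC, that median was 0.02 in CTC replicate 1 and −0.17 in CTC replicate 2. In TSC the linkers spread widely, with EVPL at 33.7, 181 and 80.1 CPM and PPL at 42.1, 184 and 89.6 CPM in replicates 1 to 3. TSC replicate 1, the lowest for both, was also lowest for long transcripts, with a median of −0.27 on the log2 scale over the longest 10% relative to the mean of PC. Without TSC replicate 2, edgeR called EVPL (−1.62, adjusted p = 0.0209), PPL (−1.36, adjusted p = 0.0304) and ITGB4 (−1.42, adjusted p = 0.0201) lower in TSC than in PC. That fit called 153 genes in all, against 72 in the main fit. Without TSC replicate 1, edgeR called EVPL (1.47, adjusted p = 0.0194) and PPL (1.65, adjusted p = 0.0079) higher in TSC than in CTC. The share of all genes called in that fit is not given here, so these calls cannot be set against it. The part of transcript length in these values was not tested.

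In TSC against PC, 0 of the 16 linkers were called by edgeR, with 2 at an unadjusted p under 0.05 (all genes, 0.505% and 10.3%). These were dystonin (DST), which ties keratin to hemidesmosomes, at 419 to 730 CPM in TSC against 947 to 1254 CPM in PC (−0.92 ± 0.22 SE, edgeR adjusted p = 0.0998), and ITGB4 (−0.99 ± 0.28 SE, edgeR adjusted p = 0.188). With no filter on low counts edgeR called ITGB4 (adjusted p = 3.57e-06), EVPL (adjusted p = 0.00192) and PPL (adjusted p = 0.0246) lower in TSC, with 1.54% of genes called, and DESeq2 called ITGB4 (adjusted p = 0.0258, with 1.3% of genes called). In TSC against CTC, 0 of 16 were called and 4 had an unadjusted p under 0.05 (all genes, 0.898% and 16.7%), the smallest being that of PPL (1.29 ± 0.44 SE, edgeR adjusted p = 0.168) and JUP, the plakoglobin gene (0.79 ± 0.30 SE, edgeR adjusted p = 0.201). With no filter edgeR called PPL (adjusted p = 1.75e-05) and EVPL (adjusted p = 0.000877) higher in TSC, with 3.17% of genes called.

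Other intermediate filament genes were led by vimentin. VIM, the type III filament of mesenchymal cells and leukocytes, was at 3.79 to 8.86 CPM in TSC, 221 and 104 CPM in CTC and 1.75 to 4.36 CPM in PC, and was 45.5-fold higher in CTC than in PC (log2 5.51 ± 0.41 SE, edgeR adjusted p = 8.15e-06) and 24.1-fold lower in TSC than in CTC (−4.59 ± 0.40 SE, edgeR adjusted p = 4.78e-05). CTC replicate 1 held more of both VIM and leukocyte marker RNA than CTC replicate 2, and the part of leukocyte RNA, or of host reads, in the VIM level was not tested. Nestin (NES), a filament of progenitor cells, was at 4.99 and 10.4 CPM in CTC, against 19.5 to 24.9 CPM in PC (−1.35 ± 0.32 SE, edgeR adjusted p = 0.031), with 5 counts in CTC replicate 1. The call on NES was lost without TSC replicate 3, either CTC library or any PC library (edgeR adjusted p of 0.0543 to 0.122) and with every library thinned to the shallowest one (adjusted p = 0.245).

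Of the 9 tested filament genes outside the keratins, edgeR thus called 1 higher and 1 lower in CTC against PC (all genes, 1.4% and 2.52%) and 1 lower in TSC against CTC (all genes, 0.526%), and 0 in TSC against PC, with 3 at an unadjusted p under 0.05 there (all genes, 10.3%). The A-type lamin gene LMNA was the nearest in TSC, at 992 to 1395 CPM against 535 to 607 CPM in PC (1.05 ± 0.22 SE, edgeR adjusted p = 0.0528), and all TSC libraries exceeded all PC libraries. VIM was second there (0.91 ± 0.38 SE, edgeR adjusted p = 0.43).

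Of 17 genes that modify, cleave or chaperone keratins, 16 were tested and edgeR called 0 in each comparison, with 4, 5 and 5 at an unadjusted p under 0.05 in TSC against PC, CTC against PC and TSC against CTC, against 10.3%, 23.6% and 16.7% of all genes. SFN, the 14-3-3σ gene whose protein binds KRT17, was at 284 to 428 CPM in TSC against 177 to 232 CPM in PC (0.80 ± 0.18 SE, edgeR adjusted p = 0.0846), with no overlap, and AURKB, a mitotic kinase gene, was second (0.53 ± 0.22 SE, edgeR adjusted p = 0.43). DNAJB6, a co-chaperone gene whose protein binds KRT18, was at 0.62 ± 0.19 SE in CTC against PC (edgeR adjusted p = 0.08) and at −0.61 ± 0.19 SE in TSC against CTC (edgeR adjusted p = 0.148). The transglutaminase gene TGM2, whose product crosslinks keratins, was at 2.67 to 9.04 CPM in TSC, 57.9 and 15.5 CPM in CTC and 8.37 to 15.1 CPM in PC, and did not pass in CTC against PC (1.57 ± 0.53 SE, edgeR adjusted p = 0.096) or in TSC against CTC (−2.22 ± 0.54 SE, edgeR adjusted p = 0.073).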

How the data were processed

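RNA of 8 libraries was depleted of ribosomal RNA and sequenced, per the labels' protocols. The authors deposited whole-number counts per gene, not normalized; STAR 2.5.3a, featureCounts 1.5.3 and hg38 are named in the submitters' processing notes, while no source used here gives the annotation, strand setting or multi-mapping treatment. All 8 columns matched a sample by title.

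The main test was edgeR's quasi-likelihood test (edgeR 4.0.16, R 4.3.3) after filterByExpr and TMM scaling, with all libraries in 1 fit and Benjamini-Hochberg adjustment over 14255 tested genes (threshold 0.05). SE is the fold change divided by the square root of F. DESeq2 1.42.0, other filters and scalings, thinning, addition of pseudogene counts and omission of each library were alternatives. Lengths, overlaps and sequences come from GENCODE 29 on GRCh38. Scripts were tested on simulated data. The members, gene lists and rules for named genes (other keratins with at least 10 counts; called list members, otherwise the 2 with the smallest p) were chosen with earlier results of these data known; the ratios were chosen after values were seen.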

Additional observations from a re-analysis of the deposited data

How the results depend on the processing

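Fold changes of the 8 tested keratins were refitted under each alternative in 3 comparisons, giving 381 values. Of these, 351 kept direction and side of the threshold, 7 passed it newly (KRT7 lower in TSC against PC in 6 and KRT18 higher in TSC against CTC in 1) and 23 changed sign without a call. For TSC against PC, 1 keratin was called with no filter, by DESeq2 and with only the 2 groups, and 0 to 1 when single libraries were left out. For CTC against PC no alternative called any, with 0 in every fit that left out a library. For TSC against CTC, 1 was called with no filter, and 0 in every fit that left out a library. The number of all genes called moved far more. In TSC against PC it was 72, against 355 with no filter, 185 by DESeq2, 128 with only the 2 groups, 44 after thinning and 10 to 153 without single libraries. In CTC against PC it was 559, against 1535, 1119, 1409 and 253 in the same order, 261 with the replicate block and 35 to 1575 without single libraries. In TSC against CTC it was 128, against 728, 386, 82 and 48 in the same order, 61 with the replicate block and 36 to 696 without single libraries. The cause was not tested.

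Deviations from the group means correlated at 0.03, −0.13 and 0.09 for TSC and PC replicates 1 to 3. Libraries with unlike replicate numbers were not compared in this way, so these values do not settle whether the libraries were paired. With the number as a block, 0 keratins were called in each comparison and KRT7 stood at −1.22 in TSC against PC (edgeR adjusted p = 0.101), while EVPL (adjusted p = 0.0654), ITGB4 (0.0614) and NES (0.0828) were no longer called in CTC against PC. Using DESeq2 size factors changed no call on a keratin. Adding pseudogene counts changed none either, but that setting could hardly move a call. KRT18P55, the pseudogene row with the most counts, held 34 over all libraries, against 126476 for KRT18. With the union of exons as length, the KRT8 level was 0.834 of that of KRT19, against 1.61 with the principal transcript and 2.03 with the coding length. Depth limits KRT7, KRT15 and KRT17 most, with 15, 7 and 2 counts in CTC replicate 1.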
